A study of Mus musculus with 6 samples.

Results

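Chemokine ligands that activated T cells can secrete were followed in CD4+ T cells of mouse spleen. The group holds 9 genes, Ccl1, Ccl3, Ccl4, Ccl5, Ccl22, Ccl24, Xcl1, Cxcl9 and Cxcl10. They were chosen by name, with earlier results of these data known. They come from 22180 genes with a probe set of their own on an Affymetrix whole-transcript array. Each of the 9 had 1 probe set assigned to that symbol alone, and all 9 were measured on all 6 arrays. The cells were isolated with magnetic beads, kept in RPMI medium with 10% fetal bovine serum and given anti-CD3 and anti-CD28 antibody at 1 μg/ml for 12 hours in every group, so no unstimulated sample serves as a baseline. Each group held 2 replicate samples. The ConCM group received control conditioned medium alone. The PlGFCM group received medium from clones of HEK-293, a line from human embryonic kidney, that overexpress PlGF2, a form of placental growth factor, and this medium can hold other products of those clones. The IL6_ConCM group received control conditioned medium with added IL-6 at 20 ng/ml. The labels name no strain, age or sex of the mice and do not say whether replicates were separate animals or cultures, so every p-value reflects only how far these samples spread, which may be technical.

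Chemokines are small secreted proteins that bind G protein-coupled receptors and direct the migration of leukocytes. In helper T cells, signals from the antigen receptor induce many of them within hours, and the cytokines around the cell shape which ones are made. Ccl3, Ccl4 and Ccl5 are inflammatory ligands that attract T cells and monocytes, and Xcl1 attracts dendritic cells that carry Xcr1. Ccl1 binds Ccr8 and Ccl22 binds Ccr4, receptors found on Th2 and regulatory T cells, and Ccl24 binds Ccr3 of eosinophils. Cxcl9 and Cxcl10 are induced by interferons and attract cells with Cxcr3. Ccl22, Ccl24, Cxcl9 and Cxcl10 are also products of dendritic cells or macrophages.

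The upstream sequences of Ccl3, Cxcl9 and Cxcl10 are given because Ccl3 carried the largest difference of the 9 genes and because Cxcl9 and Cxcl10, which lie close together on chromosome 5 with 1 coding gene starting between them, were both lower on both IL6_ConCM arrays than on both ConCM arrays. RefSeq's promoter table for GRCm38.p6 held 6 of the 9 genes. Each sequence is the 250 bases before the annotated transcript start, read 5′ to 3′ on the gene's strand, which is the minus strand for all 3. Capitals mark matches, on either strand, to an AP-1 motif (TGANTCA) or an NFAT core (GGAAAA), letters bound by factors that the antigen receptor activates. The coordinates are chr11:83649379-83649628 for Ccl3, chr5:92328080-92328329 for Cxcl9 and chr5:92348890-92349139 for Cxcl10.
Ccl3: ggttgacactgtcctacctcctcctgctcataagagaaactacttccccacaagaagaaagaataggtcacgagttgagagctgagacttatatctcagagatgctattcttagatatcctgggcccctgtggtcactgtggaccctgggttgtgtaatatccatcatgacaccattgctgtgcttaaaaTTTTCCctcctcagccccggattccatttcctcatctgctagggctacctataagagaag
Cxcl9: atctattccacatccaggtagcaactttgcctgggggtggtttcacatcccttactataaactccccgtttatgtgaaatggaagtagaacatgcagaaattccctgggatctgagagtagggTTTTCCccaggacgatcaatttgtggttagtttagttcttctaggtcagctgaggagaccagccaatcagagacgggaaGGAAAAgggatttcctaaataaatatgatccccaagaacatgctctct
Cxcl10: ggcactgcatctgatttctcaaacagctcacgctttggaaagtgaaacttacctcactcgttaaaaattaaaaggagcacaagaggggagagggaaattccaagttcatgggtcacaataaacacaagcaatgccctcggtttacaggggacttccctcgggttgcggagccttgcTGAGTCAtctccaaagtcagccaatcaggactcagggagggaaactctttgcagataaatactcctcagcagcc

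The Cxcl10 window held 1 AP-1 match, a motif found in 6.75% of the 32851 windows of the same length in the table. The Cxcl9 window held 2 matches to the NFAT core and the Ccl3 window 1, and 20.4% of all windows held that core. Among the windows not printed, that of Ccl1 also held 2 matches to the NFAT core, while those of Ccl22 and Xcl1 held neither motif. A match is a run of letters and was not tested as a binding site.

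All 9 T cell markers measured (Cd3d, Cd3e, Cd3g, Cd4, Cd2, Cd5, Cd28, Zap70 and Lat) lay above the median of all probe sets, 5.48 on the log2 scale. Markers of other cells were also above that median, namely 9 of 14 for myeloid cells, 6 of 8 for B cells, 7 of 9 for dendritic cells and 4 of 9 for NK and CD8 T cells, while Lyz2, Itgam, Mrc1, Msr1, C1qc, Xcr1 and Siglech were below it. Arrays give no read depth, and the number of arrays limits the precision. PlGFCM replicate 2 stood apart from the other arrays by its sex-linked transcripts. Its Xist level was 8.38 against 3.58 to 3.95 elsewhere. The Y-linked genes Eif2s3y, Kdm5d and Uty were lowest on it but still above the median of 5.48. Eif2s3y was at 8.59 against 8.90 to 9.14 elsewhere, and Kdm5d at 7.07 against 7.42 to 7.77. Whether this array mixed cells of female and male mice was not tested. Because it stood apart, differences of the 9 genes that rest on PlGFCM are also given without this array. In bulk RNA, fewer cells of a type and less RNA per cell cannot be told apart.

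Among the 9 genes, Ccl3 and Ccl24 passed the test in PlGFCM against ConCM. Ccl3 rose 2.59-fold and Ccl24 fell by 0.65 on the log2 scale, which puts ConCM 1.57-fold above PlGFCM. The other 7 genes did not pass, with Ccl5 the nearest to the threshold, and without PlGFCM replicate 2 none of the 9 passed with limma. Thus 2 of 9 genes passed, 1 in each direction, where 0.433% of all 22180 genes passed, 0.352% higher and 0.0812% lower. An unadjusted p under 0.05 was reached by 4 of the 9 (Ccl3, Ccl5, Ccl24 and Cxcl9) and by 8.74% of all genes. A gene was said to rise or fall where its limma p-value, adjusted by Benjamini-Hochberg over all 22180 genes, was under 0.05. The groups did not overlap for 5 of the 9 genes, 3 higher and 2 lower in PlGFCM, against 38.2% of all genes, 17.3% higher and 20.9% lower. The median absolute log2 difference was 0.36 over the 9 genes and 0.10 over all genes. The 9 genes and the lists below were chosen with earlier results of these data known. Their shares and medians beside those of all genes are therefore descriptive and test nothing about the group.

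**Figure D1:**
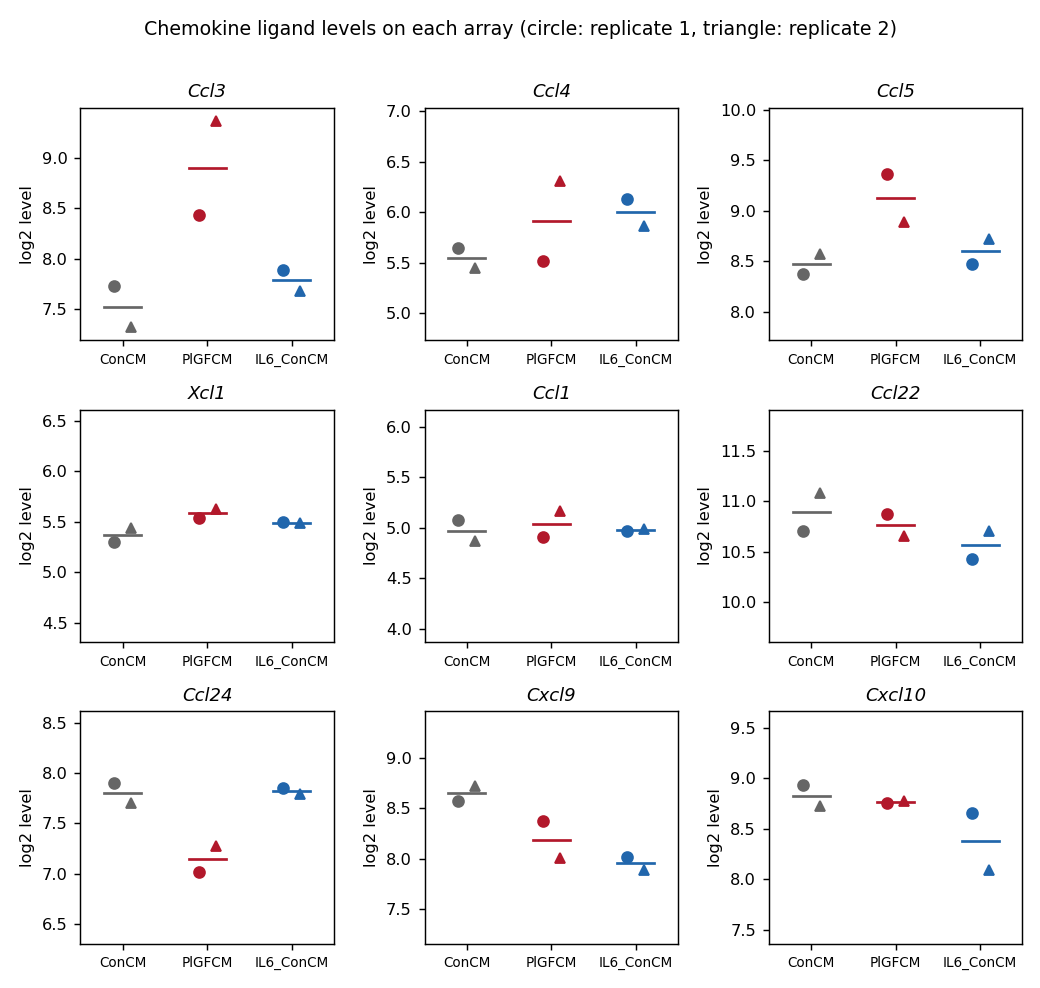
Log2 level of each chemokine gene (vertical axis, the same span in every panel) on the 6 arrays by group (horizontal axis); circles are replicate 1, triangles replicate 2 and bars group means. Both PlGFCM arrays lie above the other 4 for Ccl3 and Ccl5 and below them for Ccl24, and both IL6_ConCM arrays lie below both ConCM arrays for Cxcl9 and Cxcl10.

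Among the inflammatory ligands, Ccl3 (MIP-1alpha) had log2 levels of 7.73 and 7.32 on the ConCM arrays, 8.43 and 9.36 on the PlGFCM arrays and 7.89 and 7.68 on the IL6_ConCM arrays. Both PlGFCM arrays were above the other 4, and they also differed most from each other, with an SD of 0.65 (n = 2) against 0.29 in ConCM and 0.14 in IL6_ConCM. The difference between PlGFCM and ConCM was 1.37 ± 0.23 (SE) with a 95% interval of 0.86 to 1.89 and a limma adjusted p of 0.0311. Without PlGFCM replicate 2 it was 0.91 (limma adjusted p = 0.154). It was 1.58 when ConCM replicate 1 was left out (limma adjusted p = 0.0521) and 1.17 when ConCM replicate 2 was (limma adjusted p = 0.213), and the call was lost in all 3 fits. Without PlGFCM replicate 1 the difference was 1.84 and the call held (limma adjusted p = 0.00525). Of 14 alternative fits, Ccl3 passed in 7, and its difference was positive in all 14. Many of these fits share the reported difference of 1.37 by construction. Its sign could change only where values were rescaled or a compared array was left out.

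Ccl4 (MIP-1beta), the nearest neighbour of Ccl3 on chromosome 11, had log2 levels of 5.65 and 5.45 on the ConCM arrays, 5.52 and 6.31 on the PlGFCM arrays and 6.13 and 5.87 on the IL6_ConCM arrays. PlGFCM replicate 1 lay between the ConCM arrays and replicate 2 above all others, with an SD of 0.56 (n = 2), the next largest after that of Ccl3. Levels on the ConCM arrays were close to the median of all probe sets. The difference of PlGFCM minus ConCM was 0.36 with a 95% interval of -0.11 to 0.84 (limma adjusted p = 0.689), and it was -0.03 without PlGFCM replicate 2, a value near 0 that leaves the higher group mean to that array. RefSeq's records of Ccl3 and Ccl4 overlap, and no source here gives the positions of the array's probes, so how far the 2 probe sets are separate could not be checked.

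Ccl5 (RANTES), a ligand that T cells make late after activation, had log2 levels of 8.37 and 8.58 on the ConCM arrays, 9.36 and 8.89 on the PlGFCM arrays and 8.48 and 8.73 on the IL6_ConCM arrays. As for Ccl3, both PlGFCM arrays were above the other 4, but here replicate 1 was the higher. The difference of PlGFCM minus ConCM was 0.65 ± 0.14 (SE), with a 95% interval of 0.34 to 0.96 and a limma adjusted p of 0.0933, and it passed in 0 of 14 alternative fits, where its adjusted p ran from 0.0518 to 0.484. Without PlGFCM replicate 2 the difference was 0.89 (limma adjusted p = 0.0917), and without PlGFCM replicate 1 it was 0.41.

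Xcl1 (lymphotactin) had log2 levels of 5.29 and 5.44 on the ConCM arrays, 5.54 and 5.62 on the PlGFCM arrays and 5.49 and 5.49 on the IL6_ConCM arrays. The order of the groups was PlGFCM, IL6_ConCM and ConCM with no overlap between neighbours, within a span of 0.33 over all arrays. PlGFCM minus ConCM was 0.21 with a 95% interval of -0.06 to 0.49 (limma adjusted p = 0.681), and 0.17 without PlGFCM replicate 2. The mean level of Xcl1, like that of Ccl1, was below the median of all probe sets, so these 2 genes did not enter the fit restricted to brighter genes, and 7 of the 9 did. The interval of Xcl1 therefore sets no bound on the change in transcript.

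Among the ligands linked to Th2 and regulatory T cells, Ccl1 had log2 levels of 5.07 and 4.87 on the ConCM arrays, 4.90 and 5.17 on the PlGFCM arrays and 4.96 and 4.99 on the IL6_ConCM arrays. The groups overlapped in all 3 comparisons, and the log2 differences were 0.07 for PlGFCM minus ConCM, 0.01 for IL6_ConCM minus ConCM and 0.06 for PlGFCM minus IL6_ConCM. The 95% interval of the first was -0.25 to 0.38. It describes the log2 level of a probe set whose mean was below the median of all probe sets, and sets no bound on the change in transcript. Without PlGFCM replicate 2 PlGFCM minus ConCM was -0.07, as was PlGFCM minus IL6_ConCM.

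Ccl22 had log2 levels of 10.71 and 11.09 on the ConCM arrays, 10.87 and 10.66 on the PlGFCM arrays and 10.43 and 10.71 on the IL6_ConCM arrays. Group means stood in the order ConCM, PlGFCM and IL6_ConCM, and neighbours in that order overlapped, as did ConCM and IL6_ConCM. IL6_ConCM minus ConCM was -0.33 with a 95% interval of -0.60 to -0.06 (limma unadjusted p = 0.0220 and adjusted p = 0.758). It was -0.14 without ConCM replicate 2, -0.19 without IL6_ConCM replicate 1 and -0.52 without ConCM replicate 1. PlGFCM minus ConCM was -0.13 (limma adjusted p = 0.827), and -0.02 without PlGFCM replicate 2.

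Ccl24 (eotaxin-2), the eosinophil attractant, had log2 levels of 7.90 and 7.70 on the ConCM arrays, 7.02 and 7.27 on the PlGFCM arrays and 7.86 and 7.79 on the IL6_ConCM arrays. Both PlGFCM arrays were below the other 4, while ConCM and IL6_ConCM overlapped. PlGFCM minus ConCM was -0.65 ± 0.11 (SE) with a 95% interval of -0.90 to -0.41 and a limma adjusted p of 0.0336. Leaving out any 1 of the 4 arrays of this comparison ended the call: the difference was -0.78 when PlGFCM replicate 2 was left out (limma adjusted p = 0.107), -0.53 for PlGFCM replicate 1 (0.254), -0.56 for ConCM replicate 1 (0.249) and -0.75 for ConCM replicate 2 (0.103). Ccl24 passed in 8 of 14 alternative fits, and its difference was negative in all 14, though many of these fits share it by construction, as for Ccl3. Of 14 myeloid markers, 1 fell in the same comparison, where 0.0812% of all genes fell. It was the beta-glucan receptor gene Clec7a at -0.60 (limma adjusted p = 0.0383), which lost its call without ConCM replicate 2 or either PlGFCM array. The median of the list was 0.03 against -0.01 over all genes, and its mean log2 level was 6.12 and 6.11 on the ConCM arrays, 6.16 and 6.07 on the PlGFCM arrays and 6.15 and 6.12 on the IL6_ConCM arrays. Of the 14 differences of the list, 7 were positive and 7 negative. C1qb was at -0.49 and C1qc at -0.41, neither of which passed. The monocyte marker Cd14 was at 0.67 and the macrophage marker Adgre1 at 0.38, which did not pass either (limma adjusted p = 0.0806 and 0.334). Among 8 B cell markers Ms4a1 fell by 0.84 and Fcer2a by 0.86 on the log2 scale (limma adjusted p = 0.0125 and 0.0206), while 6 of the 8 differences were positive and the list's median was 0.20. Both lost their call without ConCM replicate 2 or either PlGFCM array, and Ms4a1 also without ConCM replicate 1. The mean log2 level of the B cell list was 6.25 and 6.19 on the ConCM arrays, 6.22 and 6.22 on the PlGFCM arrays and 6.18 and 6.21 on the IL6_ConCM arrays. The part of myeloid or B cells in the Ccl24 difference was not tested.

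**Figure D2:**
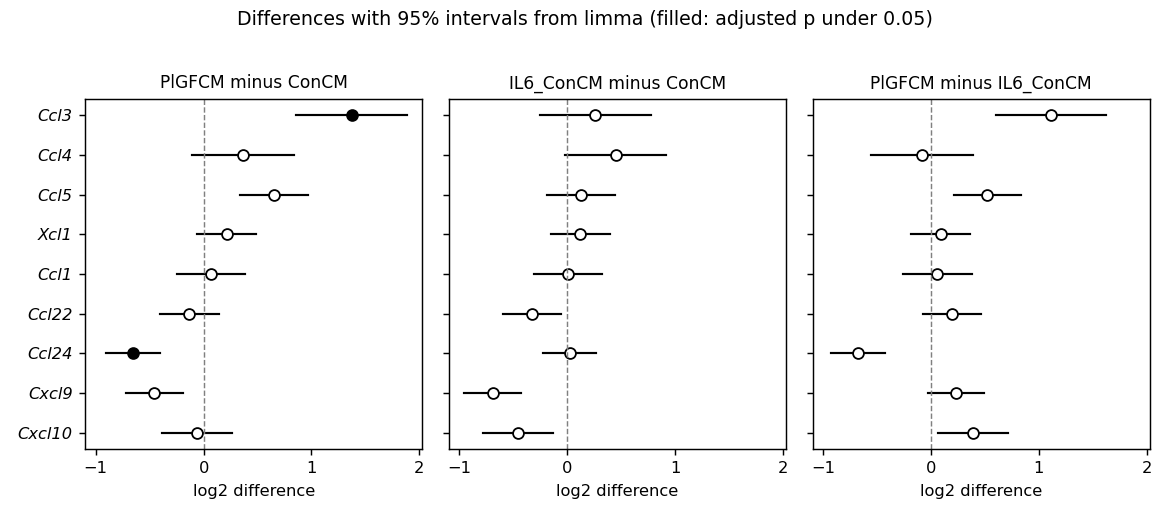
Log2 difference of each chemokine gene (horizontal axis) in the 3 comparisons, with points for the estimate, lines for limma's 95% interval and filled points for an adjusted p under 0.05. Ccl3 at 1.37 and Ccl24 at -0.65 in PlGFCM minus ConCM are the filled points, while Cxcl9 at -0.69 in IL6_ConCM minus ConCM and Ccl3 at 1.11 and Ccl24 at -0.67 in PlGFCM minus IL6_ConCM are open.

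The effect of IL-6 was read from IL6_ConCM against ConCM. None of the 9 genes passed with limma, and 3 had an unadjusted p under 0.05 (Ccl22, Cxcl9 and Cxcl10, all lower in IL6_ConCM). Of all genes 0.113% passed and 5.62% had an unadjusted p under 0.05. Ccl4 had the largest positive difference of the 9, at 0.45 (limma unadjusted p = 0.0602). In the fit with only the 4 arrays compared, which leaves out PlGFCM, its limma unadjusted p was 0.00931. Those of Cxcl9, Cxcl10 and Ccl22 were 4.02e-05, 0.0203 and 0.0299 there, and none of the 9 passed. That these 3 genes were all lower therefore holds for the reported fit alone. Groups did not overlap for 4 of the 9 genes, Ccl4 and Xcl1 higher and Cxcl9 and Cxcl10 lower in IL6_ConCM, against 34.1% of all genes, 15.7% higher and 18.4% lower. The interferon-induced ligands of Cxcr3 had the lowest differences of the 9 here.

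Cxcl9 (MIG) had log2 levels of 8.57 and 8.73 on the ConCM arrays, 8.37 and 8.01 on the PlGFCM arrays and 8.02 and 7.89 on the IL6_ConCM arrays. Both ConCM arrays were the highest, and PlGFCM and IL6_ConCM overlapped. IL6_ConCM minus ConCM was -0.69 ± 0.12 (SE), with a 95% interval of -0.95 to -0.43 and a limma adjusted p of 0.0586. It passed in 1 of 14 alternative fits, that with genes at or above the median of all probe sets (limma adjusted p = 0.0309). PlGFCM minus ConCM, which shares the ConCM arrays, was -0.46 with a 95% interval of -0.72 to -0.20 (limma adjusted p = 0.202), and without PlGFCM replicate 2 it was -0.28.

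Cxcl10 (IP-10) had log2 levels of 8.93 and 8.73 on the ConCM arrays, 8.75 and 8.78 on the PlGFCM arrays and 8.66 and 8.10 on the IL6_ConCM arrays. The lowest value, on IL6_ConCM replicate 2, set that group's SD at 0.40 (n = 2) against 0.02 in PlGFCM. IL6_ConCM minus ConCM was -0.45 with a 95% interval of -0.78 to -0.13 (limma adjusted p = 0.635), -0.17 without IL6_ConCM replicate 2 and -0.73 without IL6_ConCM replicate 1, where it passed (limma adjusted p = 0.0424). PlGFCM minus ConCM was -0.06 with a 95% interval of -0.39 to 0.26, or -0.08 without PlGFCM replicate 2, and the PlGFCM arrays lay inside the range of ConCM.

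In the direct comparison of PlGFCM with IL6_ConCM, none of the 9 genes passed with limma, and 4 had an unadjusted p under 0.05, namely Ccl3, Ccl5 and Cxcl10, higher in PlGFCM, and Ccl24, lower. Over all genes 0.0316% passed and 4.37% had an unadjusted p under 0.05. Groups did not overlap for 5 of the 9, those 4 and Xcl1, 4 of them higher in PlGFCM and 1 lower, against 30.1% of all genes, 15.2% higher and 14.9% lower. Ccl3 differed by 1.11 with a 95% interval of 0.60 to 1.63 (limma adjusted p = 0.266), and by 0.65 without PlGFCM replicate 2. Without PlGFCM replicate 1 it differed by 1.58 and passed (limma adjusted p = 0.0324). Ccl24 differed by -0.67 with a 95% interval of -0.92 to -0.43 (limma adjusted p = 0.119), Ccl5 by 0.52 with an interval of 0.21 to 0.84 and Cxcl10 by 0.39 with an interval of 0.07 to 0.71. Without PlGFCM replicate 2 these were -0.80 for Ccl24, 0.76 for Ccl5 and 0.38 for Cxcl10, and none of the 9 passed with limma. Ccl5 differed by 0.29 without PlGFCM replicate 1. Cxcl10 differed by 0.11 without IL6_ConCM replicate 2 and by 0.67 without IL6_ConCM replicate 1. A change in Ccl3 or Ccl24 that holds in PlGFCM and not in IL6_ConCM was therefore not shown at the threshold, since the test of that difference did not pass.

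**Figure D3:**
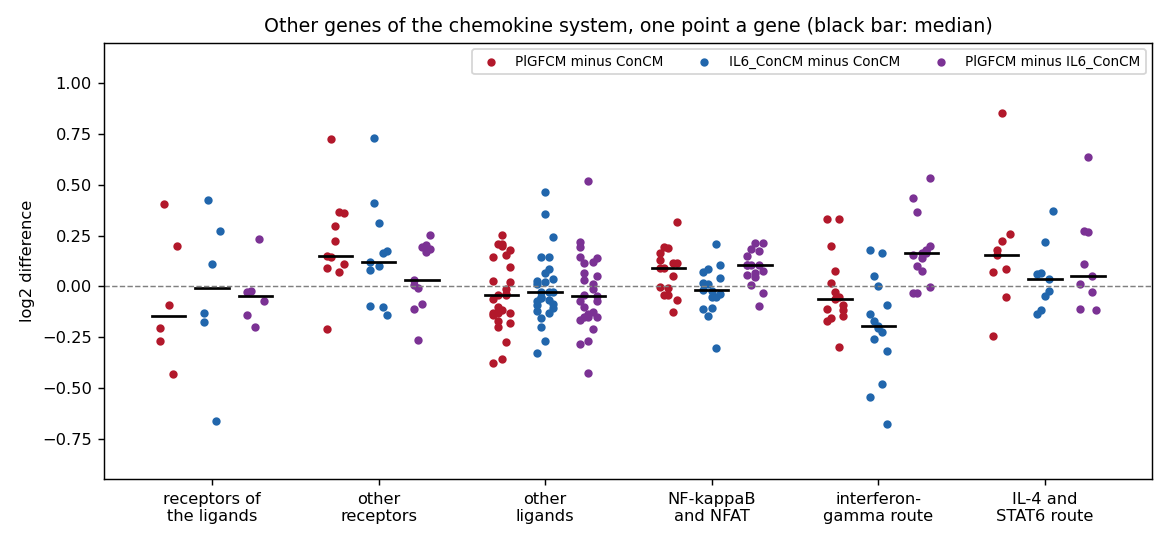
Log2 difference (vertical axis) of the other measured genes of the chemokine system by gene list (horizontal axis) and comparison (colour), with 1 point a gene and a black bar at the list median. The interferon-gamma list has its median at -0.19 in IL6_ConCM minus ConCM, and the highest point in PlGFCM minus ConCM is Maf at 0.85.

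Receptors of the 9 ligands were measured for 6 genes, and none passed in any comparison. Ccr8, the receptor of Ccl1, had log2 levels of 8.46 and 8.59 on the ConCM arrays, 7.96 and 8.23 on the PlGFCM arrays and 7.79 and 7.94 on the IL6_ConCM arrays. It was highest on both ConCM arrays, at -0.66 in IL6_ConCM minus ConCM (limma adjusted p = 0.0550) and -0.43 in PlGFCM minus ConCM (0.179). Ccr3, which binds Ccl24 and Ccl5, was at 0.40 in PlGFCM and 0.43 in IL6_ConCM against ConCM, and Cxcr3, the receptor of Cxcl9 and Cxcl10, at 0.20 and 0.27. None of these passed (limma adjusted p = 0.465 and 0.730 for Ccr3, 0.621 and 0.758 for Cxcr3). Ccr1 was at -0.27, Xcr1 at -0.20 and Ccr4 at -0.09 in PlGFCM minus ConCM. Levels of Ccr1 and Xcr1 were below the median of all probe sets on every array, so their differences set no bound on the change in transcript.

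No other chemokine receptor passed among 11 measured. In PlGFCM minus ConCM 10 of the 11 differences were positive with a median of 0.15, against -0.01 over all genes, led by Cxcr1 at 0.72, Cxcr5, the receptor of follicular helper cells, at 0.36 and Cxcr4 at 0.37 (limma adjusted p = 0.179, 0.179 and 0.398). In IL6_ConCM minus ConCM, which shares the ConCM arrays, 8 of the 11 were positive with a median of 0.12, and Cxcr1 was at 0.73 (limma adjusted p = 0.303). None of 27 other chemokine ligands passed in any comparison, and their medians were -0.04, -0.03 and -0.04 in the 3 comparisons. Cxcl11, the further interferon-induced ligand of Cxcr3, was at -0.12 in IL6_ConCM minus ConCM, and Ccl17, the other ligand of Ccr4, at 0.07. Many of the 27 ligands, Ccl17 among them, had a mean level below the median of all probe sets. Their small differences set no bound on the change in transcript. Of 5 atypical receptors, which bind chemokines without G protein signalling, and 13 genes of receptor signalling, 0 passed with limma. The numbers with an unadjusted p under 0.05 were 0, 1 and 1 for the former and 1, 3 and 2 for the latter. Over all genes the share was 8.74%, 5.62% and 4.37%, with the comparisons in the order given above. Rgs1, which shortens chemokine receptor signals, came nearest at 0.54 in PlGFCM minus IL6_ConCM (limma adjusted p = 0.0654).

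Genes of the interferon-gamma route to Cxcl9 and Cxcl10 were measured for 15 genes. In IL6_ConCM minus ConCM none passed, 11 of 15 differences were negative, and the median was -0.19 against -0.01 over all genes, while 8 had an unadjusted p under 0.05 in the lower direction and 2 in the higher, a threshold passed in either direction by 5.62% of all genes. Ifng itself had log2 levels of 7.44 and 6.83 on the ConCM arrays, 6.92 and 7.07 on the PlGFCM arrays and 6.76 and 6.16 on the IL6_ConCM arrays, so both IL6_ConCM arrays were below the other 4. Its difference was -0.68 (limma adjusted p = 0.556). The transcription factors Irf8 and Irf1 were at -0.54 and -0.32 (0.0561 and 0.108), and the interferon-induced GTPase gene Iigp1 at -0.48 (0.0586). The 2 in the higher direction were Ifngr1 at 0.18 and Jak2 at 0.17. In PlGFCM minus IL6_ConCM, which shares the IL6_ConCM arrays, none passed and the median was 0.16. Of those differences 12 were positive and 3 negative. An unadjusted p under 0.05 was reached by 9, all higher, against 4.37% of all genes. In PlGFCM minus ConCM the median was -0.06, and 1 of the 15 rose, where 0.352% of all genes did. It was the receptor chain gene Ifngr1, by 0.33 (limma adjusted p = 0.0493). Its call was lost without any single one of the 6 arrays and held in 3 of 14 alternative fits.

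Of 16 genes of NF-kappaB and NFAT signalling, pathways through which the antigen receptor induces Ccl3 and Ccl4, 0 passed with limma. Those with an unadjusted p under 0.05 numbered 4, 2 and 3 in the comparisons in that order, against 8.74%, 5.62% and 4.37% of all genes. In PlGFCM minus ConCM 10 of 16 differences were positive with a median of 0.09, with the feedback inhibitors Tnfaip3 at 0.32 and Nfkbia at 0.20 (limma adjusted p = 0.179 and 0.353). On the IL-4 and STAT6 list, the Th2 route to Ccl22 and Ccl24, 1 of 9 rose in PlGFCM minus ConCM, where 0.352% of all genes did. It was the transcription factor gene Maf, by 0.85 (limma adjusted p = 0.0287), which lost its call without any 1 of the 4 arrays compared. Il4ra was at 0.26 (0.145). Of the 9 differences 7 were positive and 2 negative, the latter being Gata3 at -0.24 (limma adjusted p = 0.575) and Il4 at -0.05. Il4 had log2 levels of 5.39 to 5.73 over the arrays, close to the median of all probe sets. Cytokines and other products that activated T cells release with chemokines (9 genes, Tnf and Ifng among them) had 0 calls with limma in any comparison. An unadjusted p under 0.05 was reached by 1, 4 and 1 of them, against the same shares of all genes as above.

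The genes most like Ccl3 over the 6 arrays, among 653 named genes with an SD of at least 0.3, were Lcn2 (Pearson's r = 0.96), Ctla2a (0.96) and Ctla2b (0.94). Ctla2a and Ctla2b are close relatives, so their probe sets may bind each other's transcripts. Those most like Ccl24 were Lum (0.94), Gzmb, which encodes granzyme B (0.94), and Slc40a1, which encodes the iron exporter ferroportin (0.93). These values describe 6 arrays in 3 groups, share the group pattern and the array's normalization, and carry no test. Gzmb, picked for its likeness to Ccl24, shared that gene's pattern by this choice. It was lower on both PlGFCM arrays, at 8.23 and 8.13, than on the other 4, at 8.79 to 9.09.

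**Figure D4:**
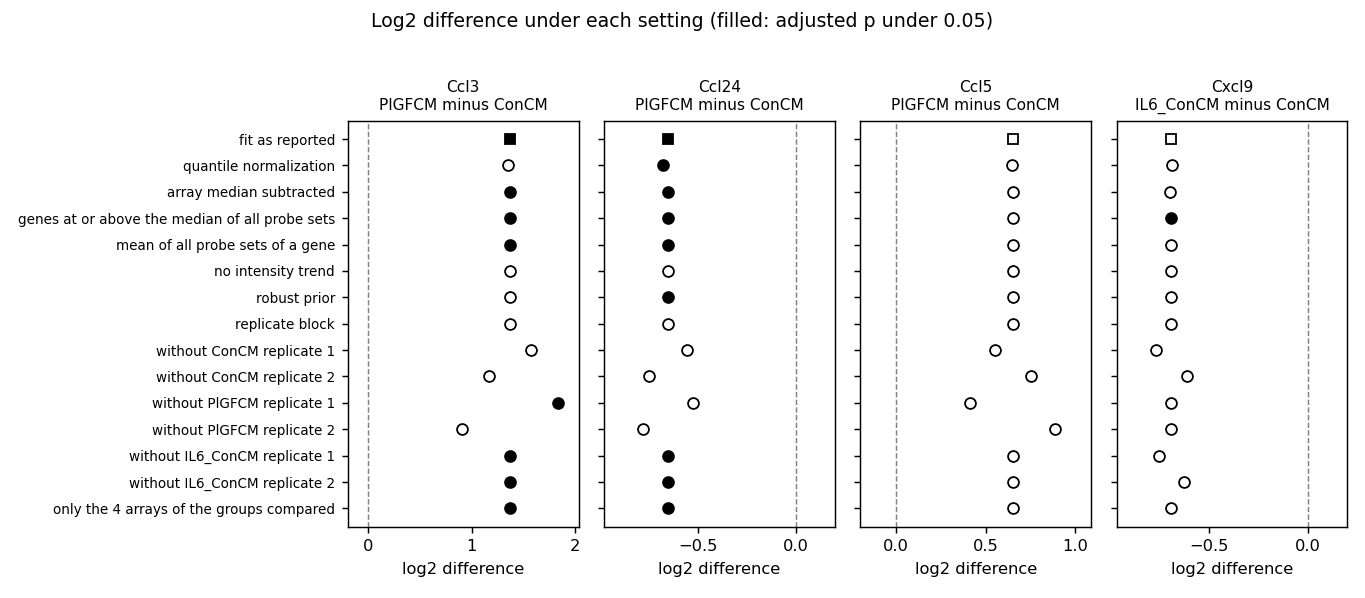
Log2 difference (horizontal axis) of Ccl3, Ccl24, Ccl5 and Cxcl9 in the comparison named above each panel, under the reported fit (square) and each alternative (circle), filled where the adjusted p is under 0.05. Every point keeps its side of 0, while Ccl3 is filled in 7, Ccl24 in 8, Ccl5 in 0 and Cxcl9 in 1 of the 14 alternatives. Alternatives that neither rescale values nor leave out a compared array share the reported difference by construction.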

How the data were processed

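Per the submitters' processing notes, the authors used Transcriptome Analysis Console to make the deposited log2 levels, 1 per probe set and array. How background and normalization were handled, and the genome build, is not given in the sources used here. That the scale is log2 was read from the values, which were used as deposited. Of 41345 probe sets, 23521 carried 1 gene symbol in the platform annotation. Another 1814 carried several and were left out, and 16010 are unnamed here. Keeping the brightest probe set of each gene gave 22180 genes.

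Group means were fitted to all 6 arrays with limma 3.58.1 in R 4.3.3 (lmFit, then eBayes with an intensity trend; 3 residual and 8.14 prior degrees of freedom), and p-values were adjusted over all genes by Benjamini-Hochberg. The fit was tested on simulated data. With 2 arrays a group, an exact two-sided permutation p is at least 0.333, so none is reported. The 9 genes, the lists and the alternatives were chosen with earlier results of these data known. Named genes are the 9, list genes that passed or had 1 of the 3 smallest p in a comparison, and the 3 genes most like each of the 9 that passed. Ccl17, Cxcl11, C1qc, Adgre1, Gata3, Il4, Cd3g, Cd4, Cd28, Zap70, Itgam, Mrc1, Xist, Uty, Kdm5d and Eif2s3y are also named though that rule did not select them, after their values were seen. Some genes of the lists are not reported here. Windows before gene starts are RefSeq's. Alternative fits changed 1 choice each, namely the normalization, the centring, the filter on dim genes, the rule for several probe sets, the variance prior, the arrays used and a replicate block.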

Additional observations from a re-analysis of the deposited data

How the results depend on the processing

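Of 27 differences (9 genes in 3 comparisons), 19 kept their sign in every alternative fit, and the other 8 were no larger than 0.36 in size. Fits that neither rescaled values nor left out a compared array share the reported difference by construction and could not change its sign. The number of genes that passed in PlGFCM minus ConCM, 2 as reported, was 1 after quantile normalization (Ccl24), 1 with a robust prior (Ccl24) and 0 without an intensity trend, and over the fits that left out 1 array each it ran from 0 to 2. In IL6_ConCM minus ConCM it was 0 as reported and 1 when dim genes were filtered out (Cxcl9), and 0 to 1 with an array left out (1 without IL6_ConCM replicate 1). In PlGFCM minus IL6_ConCM it was 0, and 0 to 1 with an array left out (1 without PlGFCM replicate 1). Where fits share the estimate of the difference and differ only in the variance or in the genes tested, that construction sets the change. For the left-out arrays the cause was not tested, and a lone array is assumed to vary like the other groups.

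With the replicate number as a block, 0 of the 9 genes passed in PlGFCM minus ConCM, and Ccl3 and Ccl24 had limma adjusted p of 0.0840 and 0.0691. Deviations of same-numbered arrays correlated at -0.04, 0.11 and 0.03 over genes for the 3 pairs of groups. The labels do not say what same-numbered samples share, and a correlation over all genes cannot decide whether some genes share a batch. Over all genes 62, 16 and 5 passed with the block in the 3 comparisons, against 96, 25 and 7 without it. The number over all genes ran from 6 (no intensity trend) to 173 (brighter genes alone), from 1 to 53 and from 0 to 11 under the same pair of settings, where 0 was also reached with other settings. Quantile normalization moved the median of all genes from -0.01 to -0.03 in PlGFCM minus ConCM, and among the 9 genes the 2 scalings turned the sign of Ccl1 alone, in IL6_ConCM minus ConCM, where its difference was 0.01. Of 372 alternative values of single genes, 354 did not pass.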
